A study of Macaca fascicularis and Macaca mulatta and Papio anubis with 20 samples.

Results

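The genes described here are RET and 3 of its co-receptors, GFRA1, GFRA2 and GFRA3, in spatial transcriptomes of primate dorsal root ganglia. They were found by their symbols, each of which named 1 feature, and are 4 of the 22000 features counted in Macaca fascicularis. In that feature set their identifiers are ENSMFAG00000033445 (RET), ENSMFAG00000001953 (GFRA1), ENSMFAG00000023628 (GFRA2) and ENSMFAG00000043925 (GFRA3). The same 4 symbols are present among the 20842 features of the sections labelled Macaca mulatta and the 21369 features of those labelled Papio anubis.

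RET is a receptor tyrosine kinase that signals for the GDNF family of growth factors. It does not bind these ligands alone: each ligand first binds a co-receptor held to the membrane by a lipid anchor, GFRA1 for GDNF, GFRA2 for neurturin and GFRA3 for artemin, and the pair then engages RET. In rodent dorsal root ganglia RET is known from non-peptidergic nociceptors and from classes of touch neurons, GFRA2 from part of both, and GFRA3 from nociceptors that carry neuropeptides.

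Sections of fresh frozen ganglia, 10 µm thick, were measured with Visium, in which polyadenylated RNA is captured on a grid of barcoded spots and each captured molecule is counted once as a unique molecular identifier (UMI). Each spot covers a patch of tissue with parts of several cells, which may differ in type, so a shared spot is not a shared cell. Of the 20 sections, 16 were labelled M. fascicularis and came under 4 title codes, taken here as 4 specimens of 4 sections each: 1 female and 1 male in batch 1, and 1 female and 1 male in batch 2. The other 4 sections were 2 labelled M. mulatta and 2 labelled P. anubis, all labelled batch 2 with no sex given; no genotype, treatment or age is given for any group, and the labels do not state how many animals or ganglia stand behind a title code.

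Depth and identity limit what some sections can show. The M. fascicularis sections held 1136433 to 7073134 UMIs under tissue, the sections labelled M. mulatta 190376 and 264661, and those labelled P. anubis 595020 and 12595205. The features counted in sections labelled M. mulatta bear P. anubis identifiers (ENSPANG) and the reverse holds for sections labelled P. anubis (ENSMMUG), so the labelled species and the reference used cannot be told apart and the labels may be crossed. The list of 17 neuron markers, of which 15 were found by symbol in M. fascicularis, summed to group means of 24260 to 32777 UMIs scaled to 1000000 (CPM) there. It summed to 30095 and 42063 CPM over 17 members in the sections labelled P. anubis and to 15233 and 6605 CPM over 14 members in those labelled M. mulatta, so these sums do not cover the same genes. In the sections labelled M. mulatta 8 fibroblast markers reached 12013 and 22172 CPM against 1227 to 7098 CPM in M. fascicularis. Receptor levels in the sections labelled M. mulatta are therefore given only as counts.

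RET was present in every M. fascicularis section, and its level was higher in every section of batch 1 than in any section of batch 2. In the female specimen of batch 1 the 4 sections held 286, 365, 344 and 426 CPM (mean 355 ± 58.0, SD, n = 4), and those of its male specimen held 323, 363, 329.5 and 334 CPM (337 ± 17.7, SD, n = 4). In batch 2 the female specimen had 244, 203, 167 and 209.6 CPM (206 ± 31.6, SD, n = 4), and the male one had 255, 236, 238 and 283 CPM (253 ± 21.7, SD, n = 4). The lowest section of batch 1, at 286 CPM, lay just above the highest of batch 2, at 283 CPM. Of all 17322 features counted, 4.02% were lower in batch 2 with no overlap of sections.

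The co-receptors did not share this order. GFRA2, the neurturin co-receptor, held 110, 152, 116 and 84.3 CPM in the female and 135, 158, 105 and 86.8 CPM in the male of batch 1. In batch 2 it held 115, 81.4, 68.3 and 102 CPM in the female and 57.2, 81.9, 58.8 and 82.7 CPM in the male. The batches overlapped: 6 of the 8 sections of batch 2 lay below the lowest section of batch 1. The specimen means were 115 ± 27.7 and 121 ± 31.8 CPM in batch 1 against 91.6 ± 20.7 and 70.1 ± 14.1 CPM in batch 2 (female and male, SD, n = 4 each).

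GFRA3, the artemin co-receptor, lay the other way round. Its sections held 49.1, 62.0, 42.4 and 51.9 CPM in the female and 64.9, 48.7, 39.8 and 48.2 CPM in the male of batch 1. In batch 2 they held 60.2, 76.6, 64.0 and 63.3 CPM in the female and 86.0, 72.5, 81.0 and 66.9 CPM in the male. Here 5 of the 8 sections of batch 2 lay above the highest section of batch 1, a partial overlap; of all features, 1.93% were higher in batch 2 with none. The specimen means were 51.3 ± 8.15 and 50.4 ± 10.5 CPM in batch 1 against 66.0 ± 7.26 and 76.6 ± 8.56 CPM in batch 2 (female and male, SD, n = 4 each).

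GFRA1, the GDNF co-receptor, was close to the limit of detection in M. fascicularis, with 366 UMIs over all 16 sections and 6 to 54 in any one. Its specimen means were 5.52 ± 1.60, 6.32 ± 1.99, 4.64 ± 2.50 and 6.42 ± 2.06 CPM (female and male of batch 1, then of batch 2; SD, n = 4 each), and all 4 overlapped. The other receptors were counted far more often, with 18554 UMIs for RET, 6502 for GFRA2 and 3726 for GFRA3; these totals also depend on transcript length and capture and are not compared as levels.

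**Figure D1:**
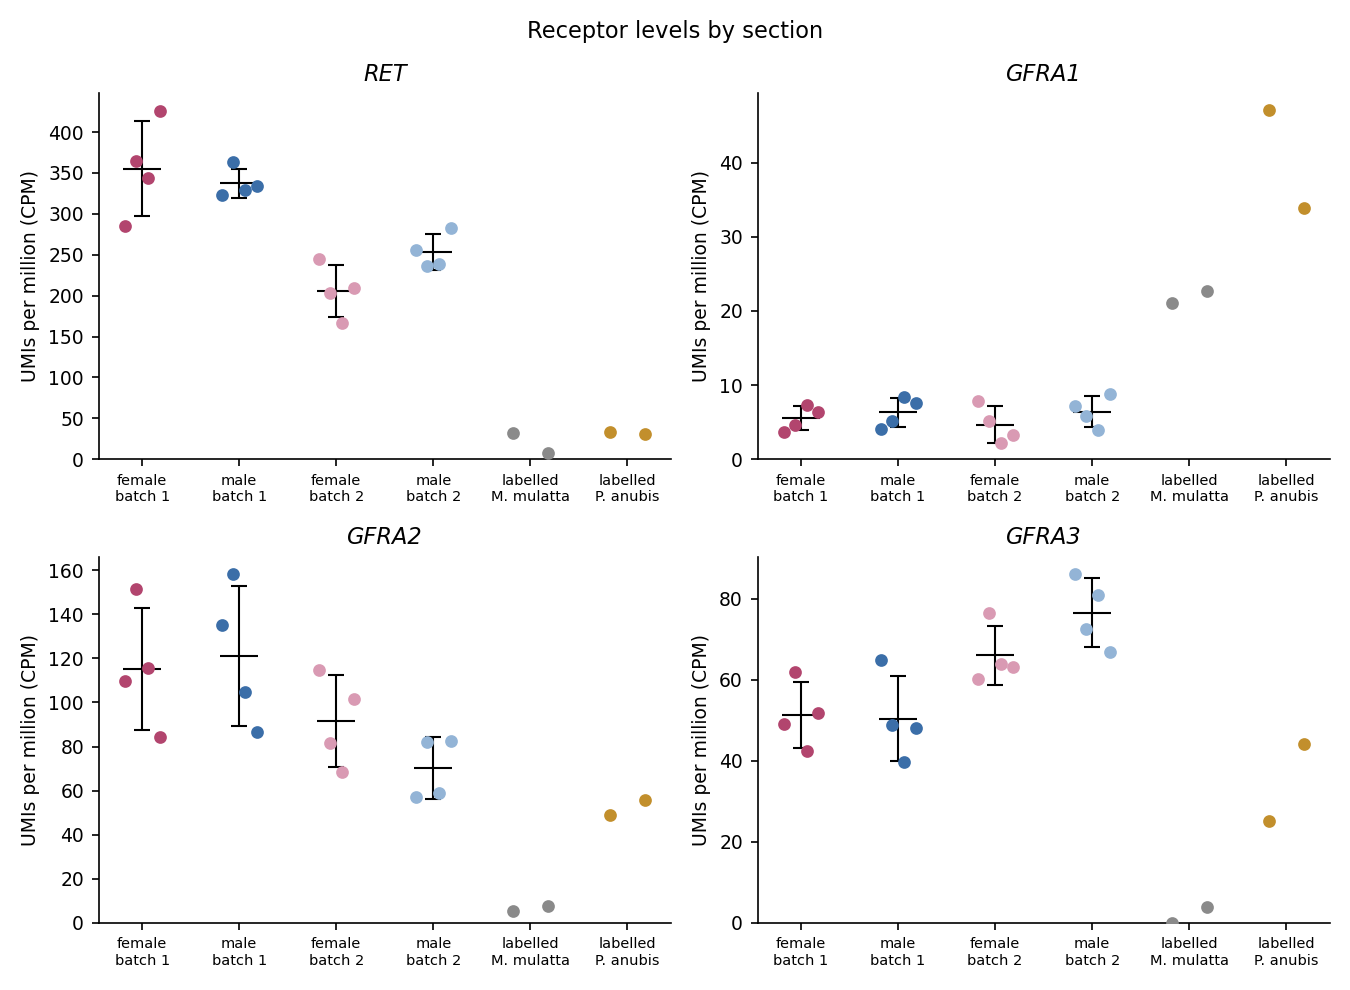
Levels of the 4 receptors in CPM (y axis, from 0) in each section (points), by specimen of M. fascicularis and by labelled species (x axis); bars are mean ± SD in groups of 4 sections. RET in batch 1 lies at 286 to 426 CPM, above all sections of batch 2, while GFRA1 is highest in the sections labelled P. anubis, at 33.8 and 47.1 CPM. Points of the sections labelled M. mulatta rest on at most 6 UMIs each and are not read as levels.

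The sections labelled P. anubis held a different set of levels. RET was at 33.6 and 30.6 CPM there (20 and 385 UMIs), so that the mean over the M. fascicularis sections was 8.97 times theirs. GFRA1 was at 47.1 and 33.8 CPM (28 and 426 UMIs), and the M. fascicularis mean was 0.142 times that. Both sections lay outside the range of all 16 M. fascicularis sections for both genes. The share of all features that lay outside that range was not counted, so these positions are descriptions only. GFRA2, at 48.7 and 55.7 CPM, lay below every M. fascicularis section, but on CPM over the 13089 symbols that all feature sets share it was at 88.7 and 103 CPM, inside the M. fascicularis range, whose lowest section was at 87.8 CPM. RET and GFRA1 stayed outside that range on shared symbols. GFRA3, at 25.2 and 44.2 CPM, reached into the M. fascicularis range. Each label stands for 1 title code and another feature set, so no test was made, and a difference between species cannot be told apart from one between references or specimens. RET had 6 and 2 UMIs in the sections labelled M. mulatta, GFRA1 4 and 6, GFRA2 1 and 2, and GFRA3 0 and 1.

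The sexes were compared over the 4 specimens with the batch in the model. No receptor passed the test, nor did any other of the 12650 features tested (0% called; edgeR quasi-likelihood test, Benjamini-Hochberg adjusted p under 0.05; 169 features had an unadjusted p under that value, and DESeq2 called 0). The log2 fold change of females over males was -0.01 (SE 0.22) for RET, -0.19 (SE 0.39) for GFRA1, 0.30 (SE 0.24) for GFRA2 and -0.04 (SE 0.21) for GFRA3, with an adjusted p of 0.998 for each. With 1 specimen of each sex in a batch, these standard errors leave room for differences of the size seen between the batches.

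Between the batches, 0 of the 4 receptors passed the same test, in which 2.88% of features did. RET was lower in batch 2 by a log2 fold change of -0.51 (SE 0.22, adjusted p = 0.26), GFRA2 by -0.47 (SE 0.24, adjusted p = 0.336) and GFRA1 by -0.10 (SE 0.39, adjusted p = 0.92), while GFRA3 was higher by 0.65 (SE 0.21, adjusted p = 0.151). With sections in place of specimens as samples, RET, GFRA2 and GFRA3 passed (adjusted p = 0.000613, 0.0362 and 0.0003), but 40.7% of features did so too, and 39.5% with the section number as a block, where the same 3 passed. Within M. fascicularis each batch holds 2 specimens and 1 Space Ranger version, so batch, specimen and version cannot be told apart.

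Other tissue genes moved with the batches. Per neuron-marker UMI, RET was lower in batch 2 by a log2 ratio of -0.90 between the females and -0.13 between the males. The large-fibre neuron list summed to a mean of 2552 and 2686 CPM in the female and male of batch 1 and to 1473 and 967 CPM in batch 2, and the myelinating Schwann cell list to 5836 and 5402 CPM against 2097 and 3139 CPM. In these lists 1 of 7 and 2 of 7 tested members were lower in batch 2, and 0 higher. SPP1 held most of the large-fibre sum, with 41262 and 46410 UMIs in batch 1 and 18502 and 6145 in batch 2. PVALB had 6272 and 9096 UMIs against 9057 and 1787, higher in batch 2 between the females and lower between the males. The fibroblast list summed to 5524 and 4603 CPM in batch 1 and to 2856 and 1869 CPM in batch 2, and 5 of its 7 tested members were lower in batch 2 (median log2 fold change -4.90 of the 7) where 2.88% of all features were called. COL1A1, a fibrillar collagen gene, had 2878 and 2445 UMIs in batch 1 and 27 and 38 in batch 2. The part of these shifts in the receptor levels was not tested. In whole sections, fewer cells of a type and less RNA per cell cannot be told apart.

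At the level of spots, 18594 spots under tissue in 15 M. fascicularis sections held at least 200 UMIs. A RET UMI was found in 36.4% of them, a GFRA2 UMI in 18.7%, a GFRA3 UMI in 13.1% and a GFRA1 UMI in 1.86%; off the tissue, where spots are much shallower, the shares were 1.99%, 0.674%, 0.487% and 0.0566%. Per UMI, RET was not rare off the tissue, at 113 to 381 CPM over the 15 sections, so a RET UMI in a spot does not by itself place RET in a cell under it. The largest count in 1 spot was 32 for RET, 25 for GFRA2, 12 for GFRA3 and 4 for GFRA1. In the sections labelled P. anubis the shares were 9.40% for RET, 10.3% for GFRA1, 13.8% for GFRA2 and 11.7% for GFRA3. Detection followed depth: within sections, the median share of spots with RET rose from 3.70% in the shallowest of 10 strata of spots (median 257 UMIs) to 94.5% in the deepest (median 11650 UMIs). Odds ratios of sharing below are therefore computed within depth strata. Spots with and without RET are compared both over all spots and at matched depth. Comparisons of levels within neuron-rich spots are not matched on depth. The shares of spots by receptor combination are descriptions with depth not matched.

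The first question at spot level was which co-receptors are enriched where RET is found. In M. fascicularis, GFRA2 and GFRA3 were higher in the 6763 spots with a RET UMI than in the 11831 without, while GFRA1 did not pass the test. This comparison called 27.3% of 11599 features, 11.1% higher and 16.2% lower, and RET itself, which chose the spots, was not tested. Spots with RET were far deeper, with section medians of 1596.5 to 11140 UMIs against 426 to 1318.5, so each result is given again for 3520 spots of each class matched on depth within sections, where 4.71% of 10456 features were called, 2.16% higher and 2.55% lower.

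For GFRA2 the levels in spots with and without RET were 127 and 76.5 CPM in the female and 128 and 84.9 CPM in the male of batch 1, 108 and 62.2 CPM in the female of batch 2, and 69.8 and 68.6 CPM in the male of batch 2. The difference was in 1 direction in 4 of 4 specimens but was almost absent in the last. Over specimens this made 108 ± 27.1 against 73.0 ± 9.85 CPM (SD, n = 4), which in edgeR was 0.58 on the log2 scale (SE 0.10, adjusted p = 0.000929). At matched depth it was 103 ± 26.6 against 75.2 ± 14.6 CPM, again higher in 4 of 4 specimens (0.48 on the log2 scale, SE 0.07, edgeR adjusted p = 3.62e-08).

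For GFRA3 the levels with and without RET were 54.2 and 34.2 CPM in the female and 54.2 and 36.2 CPM in the male of batch 1, 72.0 and 57.4 CPM in the female of batch 2, and 77.4 and 79.5 CPM in the male of batch 2. Only the last specimen ran the other way. The difference was 0.39 on the log2 scale (SE 0.11, edgeR adjusted p = 0.0157), and it missed the threshold without the female specimen of batch 1 (0.30, adjusted p = 0.094) and without the male one (0.31, adjusted p = 0.123). At matched depth GFRA3 was higher in 4 of 4 specimens, 64.7 ± 20.4 against 52.6 ± 21.7 CPM (0.34 on the log2 scale, SE 0.09, edgeR adjusted p = 0.0051).

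GFRA1 had 276 UMIs in spots with RET and 82 in spots without, or 6.96 ± 2.04 against 4.73 ± 0.911 CPM (SD, n = 4). It was higher in 4 of 4 specimens, but its log2 fold change of 0.46 (SE 0.21) had an edgeR adjusted p of 0.122, and at matched depth 0.54 (SE 0.27) had one of 0.324. Its counts do not allow a firmer statement. Within the 25% of spots of each section richest in neuron markers, where 4.79% of features were called, GFRA2 stayed higher with RET (0.36, SE 0.10, adjusted p = 0.0151), while GFRA3 (0.30, SE 0.12, adjusted p = 0.173) and GFRA1 (0.43, SE 0.34, adjusted p = 0.594) did not pass. Depth was not matched in that comparison: section medians were 2264 to 12906 UMIs with RET and 698 to 6266 without.

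**Figure D2:**
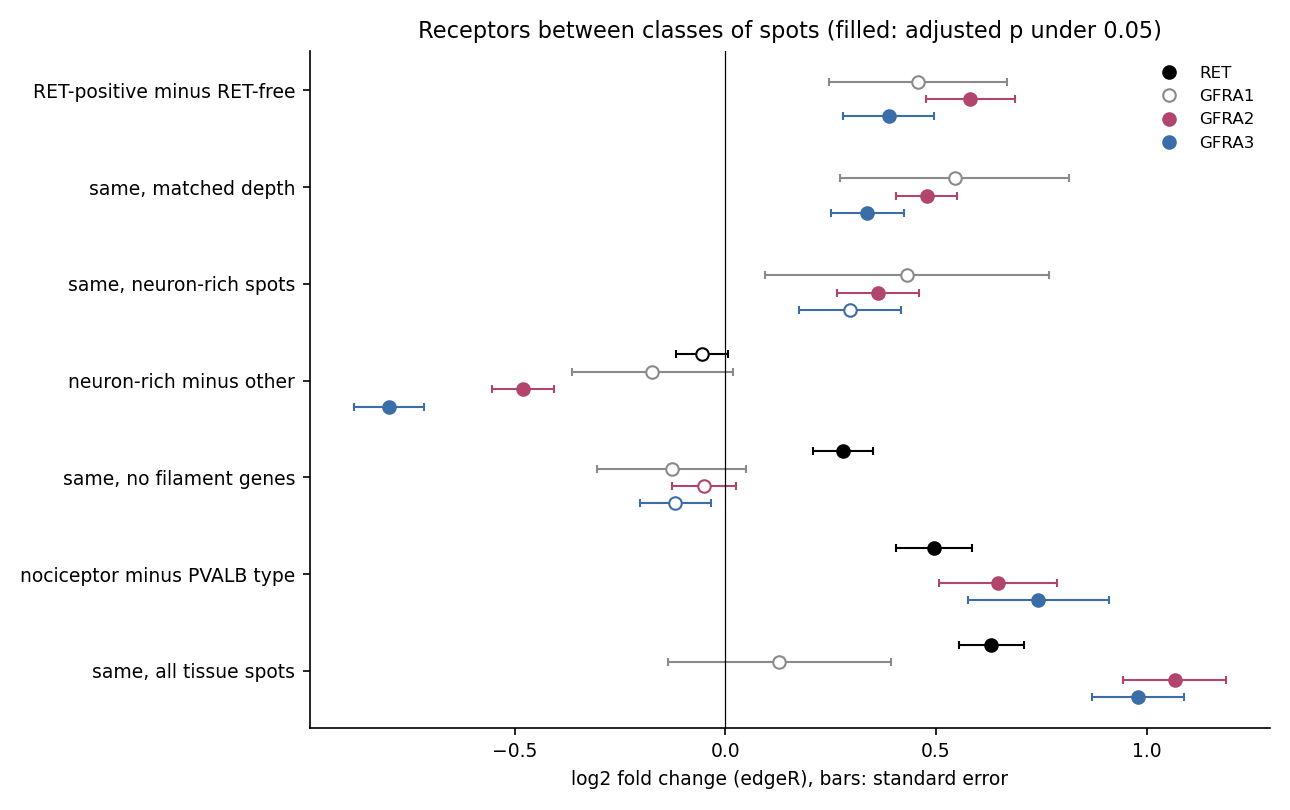
edgeR log2 fold changes (x axis) of the receptors between classes of M. fascicularis spots summed per specimen, with bars of 1 standard error; filled points have an adjusted p under 0.05. GFRA2 is at 0.58 in spots with RET and at 0.48 when depth is matched, and RET changes from -0.06 to 0.28 in neuron-rich spots when filament genes are left out of the neuron list.

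With the spots chosen by a co-receptor instead, RET was higher beside GFRA2 and beside GFRA3, and the co-receptors did not pass beside each other. At matched depth, spots with a GFRA2 UMI held 335 ± 78.2 CPM of RET against 285 ± 71.9 CPM in spots without (SD, n = 4; higher in 4 of 4; log2 fold change 0.25, SE 0.04, edgeR adjusted p = 2.46e-05), in a comparison that called 2.26% of features, 1.12% higher and 1.15% lower. Spots with a GFRA3 UMI held 345 ± 104 CPM of RET against 289 ± 81.1 CPM (4 of 4; 0.23, SE 0.04, edgeR adjusted p = 5.04e-05), where 10.4% of features were called, 4.62% higher and 5.74% lower. These pairs restate the sharing seen above in the same spots. GFRA3 did not pass between spots with and without GFRA2 (-0.11, SE 0.07, adjusted p = 0.561), nor GFRA2 between spots with and without GFRA3 (-0.14, SE 0.06, adjusted p = 0.128).

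Sharing was then measured by odds ratios, computed within 10 strata of total UMIs in each section so that a deep spot is compared with a deep spot. RET and GFRA2 shared spots with odds ratios of 1.30 and 1.42 in the female and male of batch 1 and 1.39 and 1.21 in batch 2 (geometric mean 1.33). RET and GFRA3 had 1.31, 1.53, 1.37 and 1.11 in the same order (geometric mean 1.32). Both pairs were above 1 in 4 of 4 specimens, which gives p = 0.12 in an exact two-sided sign-flip permutation test, the smallest that 4 specimens allow, and 0.188 after adjustment over the 3 pairs. By section, 14 of 15 lay above 1 for GFRA2 and 11 of 15 for GFRA3.

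RET and GFRA1 had odds ratios of 2.22, 1.95, 0.960 and 2.24 (geometric mean 1.75; 3 of 4 above 1; exact permutation p = 0.25). They rest on 84, 93, 59 and 29 shared spots, and the counting interval of the female of batch 2 runs from 0.543 to 1.69. With 4 specimens the sign-flip test cannot give a p under 0.05, so it could not set 1 co-receptor apart from another. The GFRA2 ratio with RET was above the GFRA1 ratio in 1 of 4 specimens. The GFRA1 ratio was above the GFRA3 ratio in 3 of 4. The difference of log odds ratios between GFRA2 and GFRA3 averaged 0.0045 and ran from -0.0771 to 0.0839 over specimens (exact permutation p = 0.75), that between GFRA2 and GFRA1 averaged -0.274 and ran from -0.614 to 0.371 (exact p = 0.375), and that between GFRA1 and GFRA3 averaged 0.278 and ran from -0.358 to 0.698 (exact p = 0.375; 0.75, 0.562 and 0.562 after Benjamini-Hochberg adjustment over these 3 differences). The GFRA2 and GFRA3 ratios were thus close to each other in each specimen, whereas the spread of the GFRA1 ratios leaves a difference in either direction possible.

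Without the depth strata the 3 geometric means were 4.95 for GFRA2, 4.84 for GFRA3 and 5.37 for GFRA1, several times the stratified values. Depth can still differ within a stratum. With spots of at least 1000 UMIs thinned to 1000 each, the means were lower than with strata, at 1.22 for GFRA2, 1.20 for GFRA3 and 1.49 for GFRA1. They were above 1 in 4 of 4 specimens for GFRA2 and GFRA3 and in 3 of 4 for GFRA1. Between the co-receptors themselves the stratified odds ratio of GFRA2 and GFRA3 was 0.840, 0.961, 1.05 and 1.25 over the specimens, on both sides of 1. In the sections labelled P. anubis the pair of RET and GFRA1 had the highest ratio, 2.02 (95% counting interval 1.49 to 2.75), against 1.25 (0.928 to 1.68) for GFRA2 and 1.05 (0.776 to 1.42) for GFRA3; these are 2 sections of 1 title code, and the intervals cover counting error only.

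**Figure D3:**
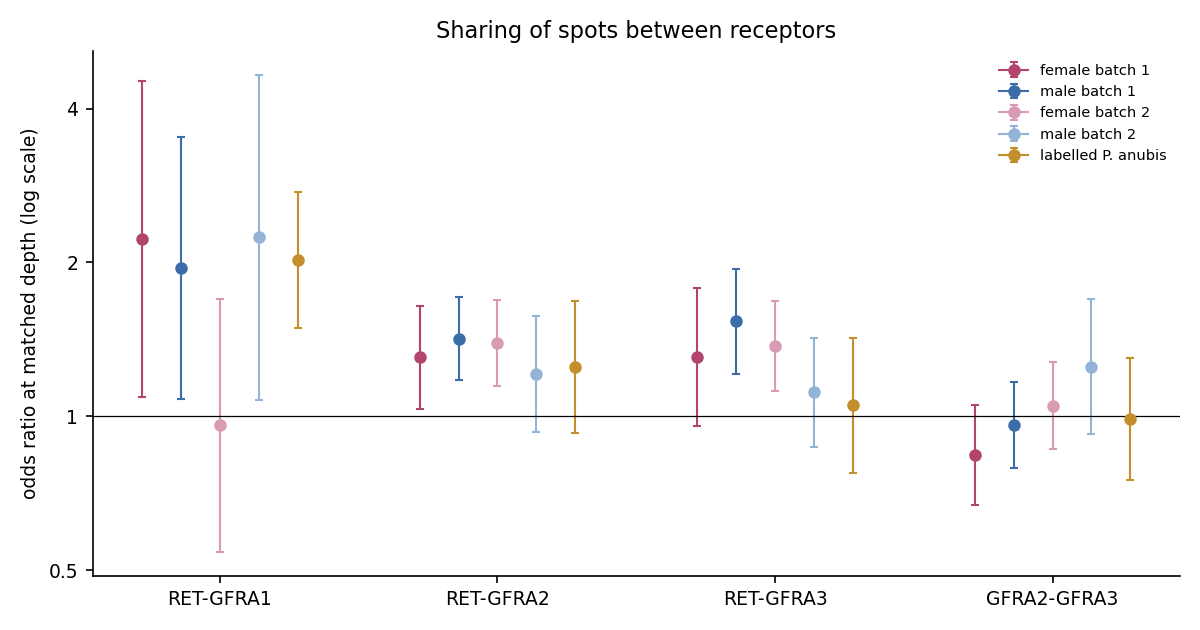
Odds ratios (y axis, log scale) of finding 2 receptors in the same spot at matched depth, per M. fascicularis specimen and for the sections labelled P. anubis, with 95% counting intervals as bars. The RET and GFRA2 points lie between 1.21 and 1.42 in all 4 specimens, and those of GFRA2 and GFRA3 lie on both sides of 1.

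By combination, 48.5% of the spots with RET in M. fascicularis held no UMI of the 3 co-receptors, 23.6% held GFRA2 alone, 13.2% GFRA3 alone, 10.8% GFRA2 with GFRA3 and 1.35% GFRA1 alone. These shares are not matched on depth. The male of batch 2 had the highest share of spots without a co-receptor among those with RET, 66.9% against 43.3% to 47.4% in the other specimens. Its spots with RET were also shallower, with section medians of 1596.5 to 3478 UMIs against 4217.5 to 11140 in the others. In that male GFRA3 alone (13.95%) was more frequent than GFRA2 alone (11.4%), the reverse of the other 3 specimens. In the sections labelled P. anubis, 312 spots held RET, of which 32.1% held no co-receptor, 13.5% GFRA1 alone, 13.1% GFRA2 alone and 8.33% GFRA3 alone. A spot without a co-receptor UMI is not a spot without the co-receptor at this depth.

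The other genes of the spots with RET were read from lists, whose median log2 fold change is set beside that of all genes tested (-0.01 both with all spots and at matched depth). Of 31 sensory receptors, channels and peptides, 25 were tested with all spots: 14 were higher with RET and 1 lower (median 0.53), where 11.1% of all features were higher and 16.2% lower. At matched depth 8 of 23 were higher and 2 lower (median 0.34), against 2.16% and 2.55% of all features. The nociceptor genes among them gave 8 of 9 higher with all spots and 5 of 8 at matched depth, and the large-fibre genes none higher, with 1 of 7 and 2 of 6 lower.

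At matched depth the sensory genes that rose with RET were channels, peptides and receptors of small neurons. SCN11A, the sodium channel NaV1.9, was at 321 ± 118 CPM with RET against 213 ± 92.4 CPM without (SD, n = 4; log2 fold change 0.63, SE 0.05). TRPV1, the heat and capsaicin channel, rose by 0.56 (SE 0.08), and MRGPRX1, an itch receptor, by 0.80 (SE 0.20) from 7.72 ± 3.88 to 13.0 ± 5.84 CPM. The peptide genes rose as well: CALCA, which encodes CGRP, by 0.34 (SE 0.05), TAC1, which encodes substance P, by 0.33 (SE 0.04), SST, which encodes somatostatin, by 0.39 (SE 0.07), and PENK, the enkephalin precursor, by 0.91 (SE 0.24). The nicotinic subunit gene CHRNA3 rose by 0.42 (SE 0.13). The 2 genes that fell are markers of large neurons: PVALB, a calcium buffer of proprioceptors, was at 304 ± 88.4 CPM with RET against 504 ± 172 CPM without (-0.73, SE 0.05), and SPP1 fell by 0.23 on the log2 scale. All 10 had an edgeR adjusted p of 0.0266 or below.

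**Figure D4:**
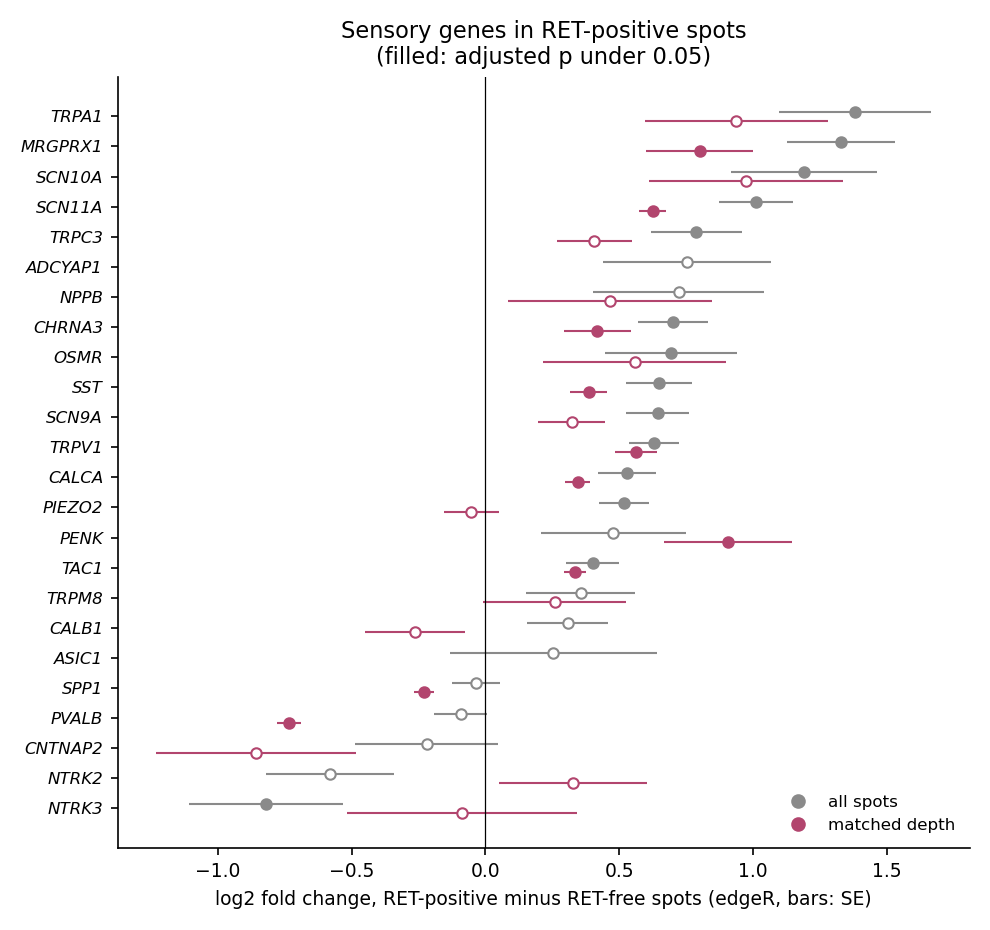
edgeR log2 fold changes (x axis, bars of 1 SE) of sensory genes between M. fascicularis spots with and without a RET UMI, with all spots (grey) and with depth matched (red); filled points have an adjusted p under 0.05. PVALB moves from -0.09 with all spots to -0.73 at matched depth, while SCN11A (1.01 and 0.63) and TRPV1 (0.63 and 0.56) stay above 0.

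The sensory genes beside GFRA3 and beside GFRA2 at matched depth were as follows. Spots with a GFRA3 UMI had 10 of 25 tested sensory genes higher and 4 lower, where 4.62% of all features were higher and 5.74% lower. In the nociceptor list 7 of 9 tested genes were higher and 0 lower, and in the large-fibre list 3 of 7 were lower. SST rose by 1.55 (SE 0.08), TAC1 by 1.00 (SE 0.06), TRPV1 by 0.93 (SE 0.06), CALCA by 0.83 (SE 0.05) and CHRNA3 by 0.65 (SE 0.10). Spots with a GFRA2 UMI had 4 of 26 higher and 2 lower, where 1.12% of all features were higher and 1.15% lower. In the nociceptor list 3 of 9 tested genes were higher and 1 lower, and in the large-fibre list 1 of 7 was lower. MRGPRX1 rose by 0.80 (SE 0.15) and SCN11A by 0.43 (SE 0.05), while PVALB fell by 0.35 on the log2 scale. In the GFRA2 comparison TAC1 (-0.07, adjusted p = 0.473) and SST (-0.15, adjusted p = 0.183) did not pass. The difference between the 2 comparisons was not tested.

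Of 11 ligands and alternative co-receptors 4 could be tested with all spots and 2 at matched depth; NCAM1, an adhesion molecule that can bind GDNF, rose by 0.47 (SE 0.10) and by 0.23 (SE 0.05, adjusted p = 0.000141). SORL1, a sorting receptor, differed by -0.97 (SE 0.23) with all spots, passing the edgeR test at an adjusted p of 0.00591, but did not pass at matched depth (-0.10, adjusted p = 0.948). The list's median was -0.42 with all spots. Neurturin (NRTN, -0.37) did not pass, and GDNF, ARTN and PSPN were not among the genes tested. Of 18 adaptors and enzymes, 2 of 15 tested were higher and 3 lower with all spots, shares near the 11.1% and 16.2% of all features, and at matched depth 1 of 13 was higher: GRB2, the adaptor that links receptor kinases to RAS, by 0.17 (SE 0.05, adjusted p = 0.037), where 2.16% of all features were higher. PIK3R1, GAB1 and DOK1 were lower with all spots, and none of the 3 passed at matched depth. Of the transcriptional readouts and brakes, SPRY1 (-1.17, SE 0.13) and SPRY2 (-0.33, SE 0.10) fell with all spots and 0 of 5 passed at matched depth. Among the lineage factors TLX3, which specifies nociceptors, rose by 0.60 (SE 0.11) and at matched depth by 0.29 (SE 0.07, adjusted p = 0.00296), while MAF, a factor of touch neurons, fell by 0.89 with all spots and did not pass at matched depth (-0.37, adjusted p = 0.172).

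With all spots, 16.2% of all features were lower beside RET and 11.1% higher, and at matched depth 2.55% and 2.16%. Beside these shares, most tested markers of myelinating Schwann cells, fibroblasts, smooth muscle, endothelium, macrophages and adipocytes were lower with all spots. Their shares fell at matched depth except for fibroblasts, while some markers of non-myelinating Schwann cells were higher. Of 7 myelinating Schwann cell markers tested with all spots 7 were lower (median -1.92), and 2 of 6 at matched depth (median -0.15). Fibroblast markers were lower in 7 of 7 and again in 7 of 7 (medians -1.70 and -0.30), and smooth muscle markers in 5 of 5 and 4 of 5. Satellite glia markers were lower in 2 of 8 and 0 of 8, near the shares of all features. Endothelial markers were lower in 4 of 5 with all spots and 1 of 5 at matched depth, macrophage markers in 5 of 7 and 0 of 7, and adipocyte markers in 2 of 3 and 0 of 2. Of the non-myelinating Schwann cell markers, which include NCAM1, 2 of 5 were higher with all spots and 2 of 3 at matched depth, with none lower (medians 0.40 and 0.25). Most UMIs of that list came from NCAM1 and L1CAM. Of the 15 neuron markers 9 were higher and 2 lower with all spots, and 3 higher and 4 lower at matched depth. Their part in the receptor differences was not tested.

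Over all genes with a symbol, the highest in spots with RET were PAQR5 (log2 fold change 1.69), CDH8 (1.59), SLC5A7 (1.56), MRGPRX1 (1.33), SLC35F4 (1.31) and CACNG2 (1.24). The lowest were TRDN (-4.86), SFRP1 (-3.08), CXCL12 (-3.06) and ACTG2 (-3.03). SLC5A7 is the choline transporter, CDH8 a cadherin, CACNG2 an auxiliary protein of AMPA receptors, SFRP1 a secreted WNT antagonist and ACTG2 a smooth muscle actin. Except for MRGPRX1 these are rare transcripts, with 57 to 186 UMIs in spots with RET for the 5 others that rose, and at matched depth only MRGPRX1, SFRP1 and ACTG2 had enough counts for the test. MRGPRX1 and ACTG2 (-1.50) passed there, and SFRP1 (-0.39, edgeR adjusted p = 0.76) did not.

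The next comparison asked whether the receptors follow neuronal RNA. In the 4648 neuron-rich spots, the 25% of each section with the highest share of neuron markers, GFRA2 and GFRA3 were lower than in the other 13946 spots, and RET did not differ beyond its error. GFRA2 was at 78.8 ± 16.1 against 116 ± 29.8 CPM (higher in 0 of 4 specimens; log2 fold change -0.48, SE 0.07, edgeR adjusted p = 5.43e-05) and GFRA3 at 42.4 ± 10.7 against 76.6 ± 17.2 CPM (0 of 4; -0.80, SE 0.08, adjusted p = 9.35e-07). RET was at 275 ± 59.9 against 305 ± 81.5 CPM (-0.06, SE 0.06, adjusted p = 0.497) and GFRA1 at 5.91 ± 2.01 against 6.44 ± 0.938 CPM (-0.17, SE 0.19, adjusted p = 0.496). This comparison called 42.3% of features, 21.6% of them lower, and in it 5 of 7 large-fibre genes were higher and 6 of 9 nociceptor genes were lower.

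The neuron list holds 5 intermediate filament genes. With these left out of the list, where 37.6% of features were called and 16.6% were higher, RET was higher in neuron-rich spots in 4 of 4 specimens, at 315 ± 86.4 against 268 ± 59.9 CPM (0.28, SE 0.07, edgeR adjusted p = 0.00445). GFRA2 (-0.05, SE 0.08, adjusted p = 0.641), GFRA3 (-0.12, SE 0.08, adjusted p = 0.286) and GFRA1 (-0.13, SE 0.18, adjusted p = 0.607) then did not pass. The direction for RET and the calls for GFRA2 and GFRA3 therefore hold for 1 definition of neuron-rich spots and not for the other.

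Within neuron-rich spots, spots with SCN10A or SCN11A and no PVALB (604, called nociceptor-type here) were set against spots with PVALB and neither channel (1499, PVALB-type). RET, GFRA2 and GFRA3 were each higher in nociceptor-type spots, in 4 of 4 specimens, in a comparison that called 15.3% of 8844 features and 7.45% in that direction. RET was at 379 and 298 CPM in the female and 370 and 234 CPM in the male of batch 1, 284 and 169.6 CPM in the female and 309 and 248 CPM in the male of batch 2 (log2 fold change 0.50, SE 0.09, edgeR adjusted p = 5.43e-05). The 2 classes overlapped over specimens, but each specimen had the higher value in the nociceptor-type spots.

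GFRA2 was at 75.7 and 74.3, 135 and 70.2, 117 and 55.4, and 66.6 and 51.4 CPM in the same order of specimens (0.65, SE 0.14, edgeR adjusted p = 0.000653). GFRA3 was at 34.4 and 23.8, 46.5 and 20.4, 65.4 and 37.5, and 58.6 and 44.7 CPM (0.74, SE 0.17, edgeR adjusted p = 0.00106). The largest ratio was in the female of batch 2 for GFRA2 and in the male of batch 1 for GFRA3. Without the male of batch 1 neither passed (adjusted p = 0.114 for GFRA2 and 0.069 for GFRA3). DESeq2 called neither (adjusted p = 0.0586 and 0.0655), and with spots of at least 1000 UMIs which called 12.6% of features, GFRA2 was at 0.18 (adjusted p = 0.567) and GFRA3 at 0.54 (adjusted p = 0.101). RET passed in each of these. GFRA1, with 14 and 33 UMIs, had too few counts to be tested. Without the restriction to neuron-rich spots, where 23.2% of features were called, the log2 fold changes were 0.63 for RET, 1.07 for GFRA2 and 0.98 for GFRA3, all called, and 0.13 for GFRA1 (adjusted p = 0.784).

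The receptors were also read in the 25% of spots richest in each list, with no test. In nociceptor-rich spots the log2 ratio to the other spots was 0.39 ± 0.20 for RET, 0.56 ± 0.27 for GFRA2, 1.21 ± 0.46 for GFRA3 and 0.00 ± 0.19 for GFRA1 (mean ± SD of 4 specimens, all 4 above 0 for the first 3). The non-myelinating Schwann cell list drew most of its UMIs from NCAM1 (3106 to 8845 per specimen) and L1CAM (3714 to 7976). Its other members had 1 to 81 each, so spots rich in this list need not be rich in these cells. In them the log2 ratio was 0.43 ± 0.22 for RET and 0.36 ± 0.25 for GFRA2, above 0 in 4 of 4 specimens. For GFRA3 it was 0.58 ± 0.42, above 0 in 3 of 4, and for GFRA1 0.03 ± 0.40. In large-fibre-rich spots it was -0.39 ± 0.15, -0.38 ± 0.22 and -0.999 ± 0.45 for RET, GFRA2 and GFRA3, below 0 in 4 of 4. GFRA3 had the widest separation between the lists. It was also the receptor with a clear gradient in the sections labelled P. anubis, where the nociceptor-rich log2 ratio was 1.92 for GFRA3, 0.18 for GFRA2 and 0.01 for RET. RET was low in fibroblast-rich (-0.87 ± 0.29) and in myelin-rich spots (-0.84 ± 0.47), in 4 of 4 specimens each.

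The genes most like each receptor over spots were named by the mean Pearson correlation of log-scaled counts over 15 sections, among 8894 genes. The points share depth and tissue composition, so these are descriptions. For RET they were OLFM1 (r = 0.32), PRPH (0.30), TPPP3 (0.29), FKBP1B (0.29) and CALCB (0.29), positive in 15 of 15 sections. For GFRA2 they were OLFM1 (0.21), SCG3 (0.20), FKBP1B (0.19), SCN11A (0.19) and SYT4 (0.19), and for GFRA3 CALCB, TAC1, CALCA, SCG2 and LXN, each between 0.17 and 0.18. PRPH is the filament peripherin of small neurons, and CALCB, CALCA and TAC1 are neuropeptide genes. RET correlated with GFRA2 at 0.16 and with GFRA3 at 0.12, and GFRA2 with GFRA3 at 0.06. For GFRA1 they were RET, PSMD4, FNDC5, TMEM132E and DOK4, each between 0.05 and 0.06, values too weak to read; RET was the first of them, and was 34th for GFRA2 and 57th for GFRA3.

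The last measure was spatial order within a section, as Moran's I in the authors' deposited tables, where 0 means that neighbouring spots are no more alike than distant ones. In the authors' deposited table RET had I between 0.023 and 0.351 over the 16 M. fascicularis sections (median 0.081) and passed the authors' adjusted p of 0.05 in 15. Of all genes listed, 20.7%, 40.6%, 17.8% and 17.5% passed in sections 1 to 4 of the female and 16.8%, 16.1%, 19.7% and 21.4% in those of the male of batch 1. In batch 2 it was 13.3%, 8.3%, 8.59% and 14.6% in the female and 22.1%, 6.3%, 7.69% and 5.42% in the male, with 3.62% and 2.53% in the sections labelled M. mulatta and 3.31% and 22.6% in those labelled P. anubis. RET ranked above 91.7% of listed genes or more in every M. fascicularis section. In the sections labelled P. anubis RET ranked above 78.2% and 68.2%, on 20 and 385 RET UMIs. In those labelled M. mulatta RET ranked above 14.5% and 52.5%, but on 6 and 2 RET UMIs, too few to read. Its deposited I was at least 0.1 in 7 sections, all of batch 1, where it ran from 0.079 to 0.351, while in batch 2 it ran from 0.023 to 0.083. That split by batch at 0.1 did not hold when I was computed anew from log-scaled counts of the spots under tissue, where it was at least 0.1 in 8 of 8 sections of batch 1 (0.173 to 0.415) and in 6 of 7 of batch 2 (0.071 to 0.185).

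The co-receptors had lower values and passed in fewer sections. They also have fewer UMIs than RET, and the part of that was not tested. In the authors' deposited tables GFRA2 passed in 10 of 16 sections (I from -0.001 to 0.225, median 0.028), in all 4 of the male of batch 1 and of the female of batch 2 but in 0 of 4 of the male of batch 2. GFRA3 passed in 5 of 16 (from -0.012 to 0.090, median 0.013) and GFRA1 in 1 of 16 (I of 0.021 there). Section 2 of the female of batch 1 had the highest I of RET (0.351), GFRA2 (0.225) and GFRA3 (0.090), and it was also the deepest per spot, with a median of 5145 UMIs, and the one in which most other genes passed. In section 2 of those labelled P. anubis, where 22.6% of genes passed, the authors' deposited values passed for GFRA2 (0.032) and GFRA3 (0.044) but not for RET (0.009) or GFRA1 (0.007). Moran's I computed anew kept the order of medians, at 0.185 for RET, 0.088 for GFRA2, 0.062 for GFRA3 and -0.001 for GFRA1 over 15 sections.

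**Figure D5:**
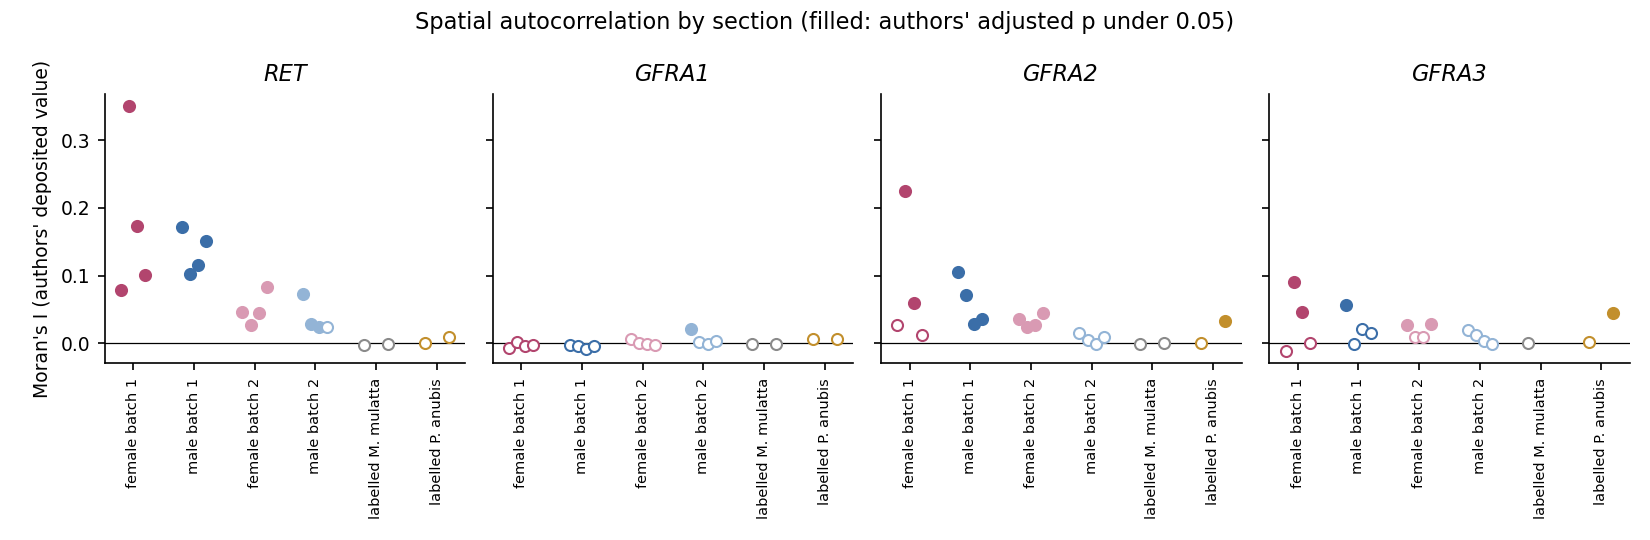
Moran's I of the 4 receptors in each section (points) from the authors' deposited tables, by specimen and labelled species (x axis); filled points passed the authors' adjusted p of 0.05. RET passed in 15 of 16 M. fascicularis sections, and all sections whose deposited value is at or above 0.1 for RET are of batch 1, whereas I computed anew was at least 0.1 in 6 of 7 sections of batch 2 too.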

How the data were processed

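Visium counts of 20 sections were analysed. Per the file headers, the deposited matrices hold raw UMI counts per feature and spot from Space Ranger 2.0.0 (12 sections, all M. fascicularis batch 1 sections among them) or 2.1.0 (7 sections). The submitters' processing notes name the build Mmul_10, which the feature prefixes of most sections do not match. The authors' deposited tables give counts summed under tissue, Moran's I as a score, and its p-value and adjusted p-value per feature. Section 3 of the male of batch 2 entered through its table alone.

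From these, CPM per section and sums over spots of at least 200 UMIs per specimen were computed. Classes were tested with edgeR 4.0.16 (quasi-likelihood, filterByExpr, specimen as block) over all features with Benjamini-Hochberg adjustment at 0.05, checked on simulated data. In simulated counts, 28% of 2-fold and 82% of 4-fold changes were recovered for the sexes, and 15% and 82% for the batches. False calls were 9.09% and 12.6% of the features called there. For the classes of spots, 72% to 90% of 2-fold changes were recovered, with 3.08% to 6.60% false calls. Depth was matched by drawing, at random, equal numbers of spots of both classes from each of 10 strata of UMI total in a section. Odds ratios are Mantel-Haenszel over 10 depth strata; spot shares and intervals cover counting error only. Alternatives were DESeq2 1.42.0, other filters, spot minimums, classes and left-out samples. Named genes were the receptors, the pathway, sensory and marker lists, the 6 highest and 4 lowest called genes with 1 sign in 4 of 4 specimens, and the 5 genes most correlated with each receptor. Spots chosen by GFRA2 or GFRA3, and batch ratios within each sex, were added after seeing the data. In the sensory list, 1 gene enters the counts but is not reported here. The members and lists were chosen with earlier results of these data known. Within specimens the 24 section pairs differed by at least 3.69 in chi-square per degree of freedom, so none was counted as a duplicate. P-values over sections measure the spread between sections, which may be technical. No sequence or coordinate is given, since the gene table at hand is of another assembly.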

Additional observations from a re-analysis of the deposited data

Results flagged for a closer look

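Of 48 groups of 4 values examined, 3 had 1 value far from the others, where chance gives about 1 in 20. The authors' deposited Moran's I of RET in the male of batch 2 was 0.0723 in section 1, against 0.0280 in the next section and 0.0234 in the lowest. The share of spots with a GFRA3 UMI in the female of batch 1 was 32.2% in section 2, against 12.8% in the next section and 10.6% in the lowest; the shares are not matched on depth, and that section also had the highest median depth per spot, 5145 UMIs. The log odds ratio of RET and GFRA1 was -0.041 in the female of batch 2, against 0.67 in the next specimen and 0.81 in the highest, and rests on 59 shared spots.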

How the results depend on the processing

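Counts of receptors called stayed within 1.5 times, and the other main values within their spread, in 78 alternatives and not in 11. Alternatives of the sign-flip test of spot sharing say nothing about stability. With 4 specimens or fewer that test cannot give a p under 0.05, so no co-receptor could be called in any of them. For the batches the count rose from 0 to 3 of 4 with sections as samples and to 3 with the section number as a replicate block (RET -0.48, GFRA2 -0.42, GFRA3 0.61); same-numbered sections correlated between -0.173 and 0.496 and 2 of 16 sections matched their own number best, so the numbers do not pair them. For spots with RET, 2 of 3 co-receptors were called, but 1 within neuron-rich spots, 0 without the specimen block and 1 to 2 with a specimen left out. Leaving filaments out of the neuron list gave 1 call in place of 2 and turned RET to 0.28, and GFRA1 turned to 0.026 there with spots of at least 1000 UMIs. For nociceptor-type spots, 3 calls became 1 with DESeq2, 1 with at least 1000 UMIs and 1 to 3 with a specimen left out. Adding a minimum of 0.1 left RET 7 of 15 sections by Moran's I. Over the 20 alternatives of each, left-out sections among them, the log2 sex difference ran from -0.055 to 0.019 for RET and from -0.105 to 0.036 for GFRA3. The batch difference of GFRA1 ran from -0.263 to 0.0064.

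Over all features, the sex test called 67 without a filter, 8 with sections as samples and 5 with the block, against 0. The batch test called 1279, 4345 and 4448, against 364, and 115 to 942 with 1 section left out. DESeq2 called 1884 features for spots with RET, against 3171 (1428 to 3818 with a specimen left out), and 589 for nociceptor-type spots, against 1355 (2483 over all tissue spots, 608 without the male of batch 1). Low counts limit GFRA1 most: its 366 UMIs leave no firm statement in M. fascicularis. The causes of these shifts were not tested.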
